A study of Saccharomyces cerevisiae with 6 samples.

Results

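The enzymes that build phenylalanine, tyrosine and tryptophan in budding yeast are encoded by a small group of genes, and 10 of them were examined: ARO3, ARO4, ARO1, ARO2, ARO7, TYR1, TRP2, TRP3, TRP4 and TRP5. They were chosen by name, each had 1 probe set, and they are 10 of the 5449 Saccharomyces cerevisiae genes measured. The study hybridised RNA of 6 cultures to 6 one-colour expression arrays, 3 of a wild-type diploid of the Σ1278b background and 3 of a strain of the same background in which PUN1, the gene of a plasma membrane protein, was deleted on both chromosomes, per the labels. Σ1278b strains switch to filamentous growth under nitrogen limitation. All cultures had grown at 30 °C in rich medium to an OD600 of 0.6 and had then spent 6 h in SLAD, a medium with 2% glucose and little ammonium that also held amino acids for the strains' auxotrophies. The labels name neither these auxotrophies nor the marker used for the deletion, and they do not say how many clones of the deletion strain were used. Each value is a log2 probe set value of the authors, and each difference is deletion minus wild type.

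Aromatic amino acids share a common trunk, the shikimate pathway, which starts from phosphoenolpyruvate and erythrose 4-phosphate and ends at chorismate. From chorismate, 1 branch runs through prephenate to phenylalanine and tyrosine, and another runs through anthranilate to tryptophan. Flux into the pathway is held back by its products: the entry isozymes are inhibited by phenylalanine (Aro3) or tyrosine (Aro4), and anthranilate synthase by tryptophan. Many amino acid genes of yeast are activated by Gcn4, a transcription factor whose production is controlled mainly at translation.

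The deletion arrays differed from wild type in more than PUN1. PUN1 itself read 13.35, 13.50 and 13.55 in wild-type replicates 1, 2 and 3. In deletion replicates 1, 2 and 3 it read 8.33, 4.83 and 4.93, so deletion replicate 1 kept a signal above its background of 5.69 while the other 2 lay below theirs (5.67). PUN1 was called lower (limma adjusted p = 0.00169), and with those 2 arrays set at their background the decrease was at least 6.91 on the log2 scale. All 4 alpha-cell markers and all 5 haploid-cell markers were higher in the deletion arrays, by 3.68 to 7.93 and by 3.20 to 6.33. The 5 a-cell markers did not pass the test (differences of -0.35 to -0.03). HMRA1, the gene of the a1 subunit of the a/alpha repressor, read 9.05, 8.82 and 9.42 in wild type and 4.43, 3.98 and 4.34 in the deletion, below background on all 3 deletion arrays; its probe set cannot be told apart from the identical gene at the mating-type locus. The markers of the deletion arrays are thus those of alpha cells and not of the a/alpha diploid that the study describes. They do not give the ploidy of these cells. For every difference given here, the loss of PUN1 and the difference in mating type cannot be told apart. Nor can any other difference between the strains, such as in ploidy or auxotrophies. A 25S ribosomal RNA control was high on wild-type replicate 1 and deletion replicates 2 and 3 (11.28 to 12.81) and low on the other 3 arrays (8.85 to 9.07). With 3 arrays per group precision is limited by their number, and p-values measure the spread between cultures labelled as biological replicates.

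Transcripts of the shared trunk and of TRP2, TRP3 and TRP4 in the tryptophan branch were lower in the deletion arrays, by amounts of 11.4% to 23.0%. Those of TRP5 and of the branch to tyrosine did not pass the test. Of the 10 genes, limma called 7 lower and none higher at an adjusted p of 0.05, and the other 3 missed that threshold. Among all 5498 tested probe sets, 25.6% were called, 9.82% as lower and 15.8% as higher. With each array centred on its median the whole-table counts were 711 lower and 702 higher in place of 540 and 868, and after a further quantile normalization 760 and 700; none of the 10 genes was called higher under either. The median difference of the 10 genes was -0.26, against 0.02 over all tested genes. All 10 read above background on all 6 arrays.

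The trunk begins with 3-deoxy-D-arabino-heptulosonate 7-phosphate synthase, which exists as the isozymes Aro3 and Aro4. ARO4 (YBR249C), the tyrosine-inhibited isozyme, read 13.54, 13.56 and 13.54 in wild-type replicates 1, 2 and 3 and 13.33, 13.28 and 13.27 in the deletion replicates. Every deletion array lay below every wild-type array, with a gap of 0.21 between the groups that was wider than either group's own range. The fitted difference was -0.26 (SE 0.04, adjusted p = 0.00386), which puts the deletion at 83.8% of wild type (95% interval 78.7% to 89.2%). ARO3 (YDR035W), the phenylalanine-inhibited isozyme, read 13.25, 13.33 and 13.40 in wild type and 13.14, 13.14 and 13.18 in the deletion. Its groups did not overlap, but the gap was 0.08 and the wild-type values were spread over more than that. The difference of -0.17 (SE 0.05, adjusted p = 0.0383) was the smallest of the 7 calls, and it survived the removal of wild-type replicate 1 but not that of any other array (adjusted p = 0.0756 to 0.128).

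ARO1 (YDR127W) encodes the multidomain AROM protein, which carries out the consecutive middle steps of the trunk. It read 13.26, 13.40 and 13.36 in wild type and 12.97, 12.96 and 13.02 in the deletion. All deletion values lay below all wild-type values, by a gap of 0.25. The difference was -0.36 (SE 0.05, adjusted p = 0.00291), a level of 77.9% of wild type (95% interval 71.9% to 84.4%). ARO2 (YGL148W), the gene of chorismate synthase, which closes the trunk, read 13.34, 13.31 and 13.31 in wild type and 13.06, 12.95 and 12.99 in the deletion. The gap between its groups was again 0.25, and here the wild-type arrays were nearly equal (SD 0.02). Its difference was -0.32 (SE 0.04, adjusted p = 0.00283), which leaves the deletion between 74.4% and 85.9% of wild type (95% interval).

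**Figure D1:**
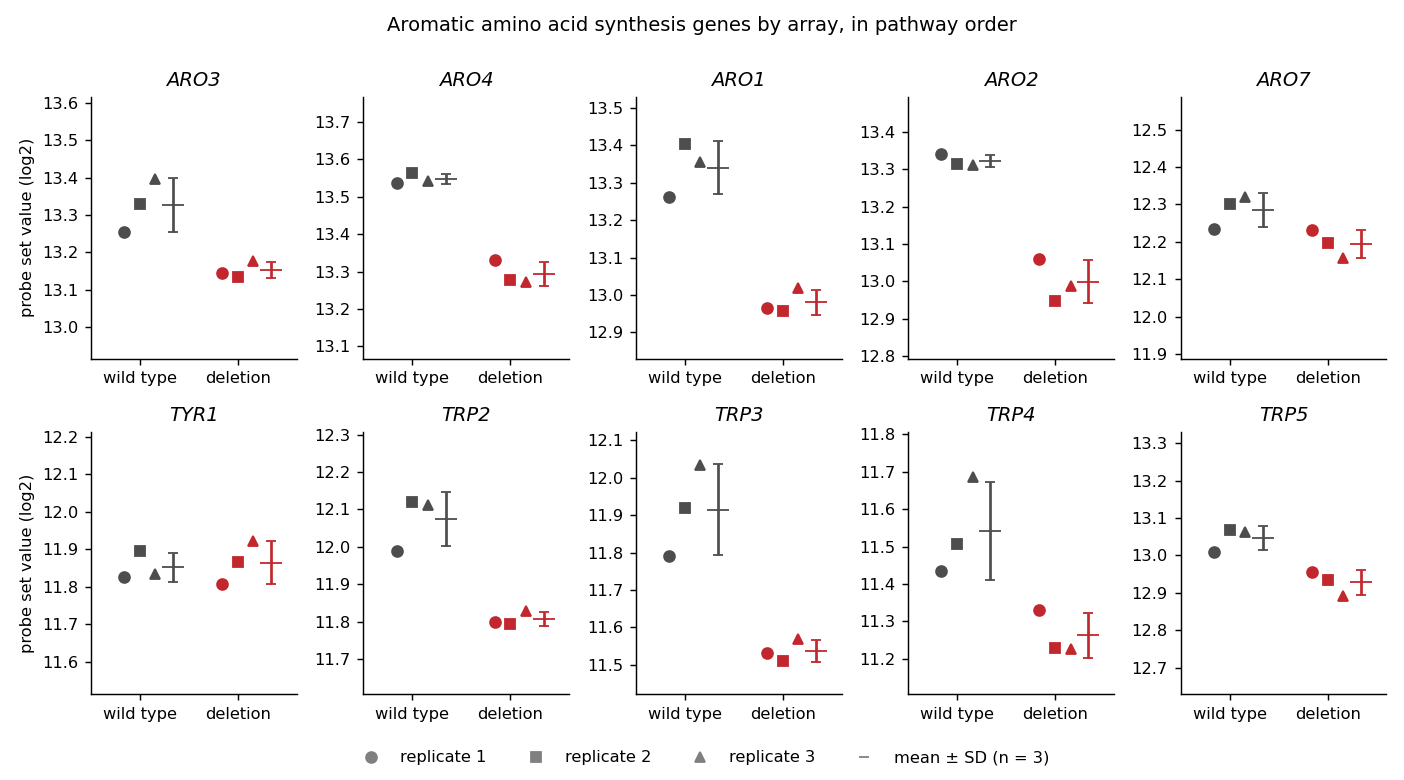
Values of the 10 genes on each array, in pathway order; each panel spans 0.7 log2 units on its own y axis (probe set value, log2), points are replicates 1 to 3 of wild type (grey) and deletion (red), and bars are the mean ± SD of 3 arrays. In 9 panels every deletion point lies below every wild-type point; TYR1 is the exception.

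In the tryptophan branch TRP2, TRP3 and TRP4 were called lower and TRP5, at the end, was not. TRP2 (YER090W), which encodes the chorismate-binding subunit of anthranilate synthase, read 11.99, 12.12 and 12.11 in wild type and 11.80, 11.79 and 11.83 in the deletion. The lowest wild-type array, replicate 1, still lay 0.16 above the highest deletion array. The difference was -0.27 (SE 0.05, adjusted p = 0.00834). TRP3 (YKL211C), whose product joins the glutamine amidotransferase of anthranilate synthase to indole-3-glycerol phosphate synthase, read 11.79, 11.92 and 12.03 in wild type and 11.53, 11.51 and 11.57 in the deletion. The wild-type arrays were spread more widely than the deletion arrays (SD 0.12 against 0.03), and the groups stayed apart by 0.22. With -0.38 (SE 0.07, adjusted p = 0.00746) TRP3 had the largest fitted decrease of the 10 genes, at 77.0% of wild type (95% interval 69.1% to 85.8%), and it ranked at place 204 among the decreases of all 5449 genes.

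TRP4 (YDR354W), the gene of anthranilate phosphoribosyltransferase, read 11.43, 11.51 and 11.69 in wild type and 11.33, 11.23 and 11.23 in the deletion. Its wild-type spread was the widest of the 10 genes (SD 0.13), and the groups were separated by 0.10. The difference of -0.28 (SE 0.07, adjusted p = 0.0317) lost its call when replicate 2 or 3 of either group was left out (adjusted p = 0.0531 to 0.107). TRP5 (YGL026C), the gene of tryptophan synthase, which catalyses the final step, read 13.01, 13.07 and 13.06 in wild type and 12.96, 12.93 and 12.89 in the deletion. The groups did not overlap, but the gap was only 0.05. TRP5 differed by -0.12 (SE 0.04) and did not pass (adjusted p = 0.0706). It passed after median centring (adjusted p = 0.0423) and with a mean-variance trend and robust estimation in the variance model (adjusted p = 0.0352). The 95% interval of TRP5, -0.21 to -0.02, overlaps those of TRP2 and TRP4, which reach up to -0.15 and -0.11. That of TRP3 ends at -0.22 and does not overlap it. TRP5 was not compared with these genes directly. TRP1, which encodes the isomerase between Trp4 and the second activity of Trp3, was not analysed here.

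The branch to phenylalanine and tyrosine showed no call. ARO7 (YPR060C) encodes chorismate mutase, the enzyme that commits chorismate to prephenate and that tyrosine inhibits and tryptophan activates. It read 12.23, 12.30 and 12.32 in wild type and 12.23, 12.20 and 12.16 in the deletion, groups that were apart by less than 0.01. Its difference was -0.09 (SE 0.04, adjusted p = 0.168), with a 95% interval of -0.19 to 0.01. TYR1 (YBR166C), the gene of prephenate dehydrogenase on the way to tyrosine, read 11.83, 11.90 and 11.83 in wild type and 11.81, 11.87 and 11.92 in the deletion. Here the groups overlapped throughout. Its difference was 0.01 (SE 0.05, adjusted p = 0.869), and the 95% interval of -0.10 to 0.12 leaves room for a level between 93.5% and 109% of wild type. A decrease as large as the fitted one of ARO4, ARO1, ARO2, TRP2, TRP3 or TRP4 lies outside the intervals of both ARO7 and TYR1. Those fitted values have errors of their own. The 95% intervals of ARO4, TRP2 and TRP4 reach up to -0.17, -0.15 and -0.11 and overlap that of ARO7. Those of ARO1, ARO2 and TRP3 end at -0.24, -0.22 and -0.22 and do not. Of these genes only TRP2 was compared with ARO7 directly, as given below.

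**Figure D2:**
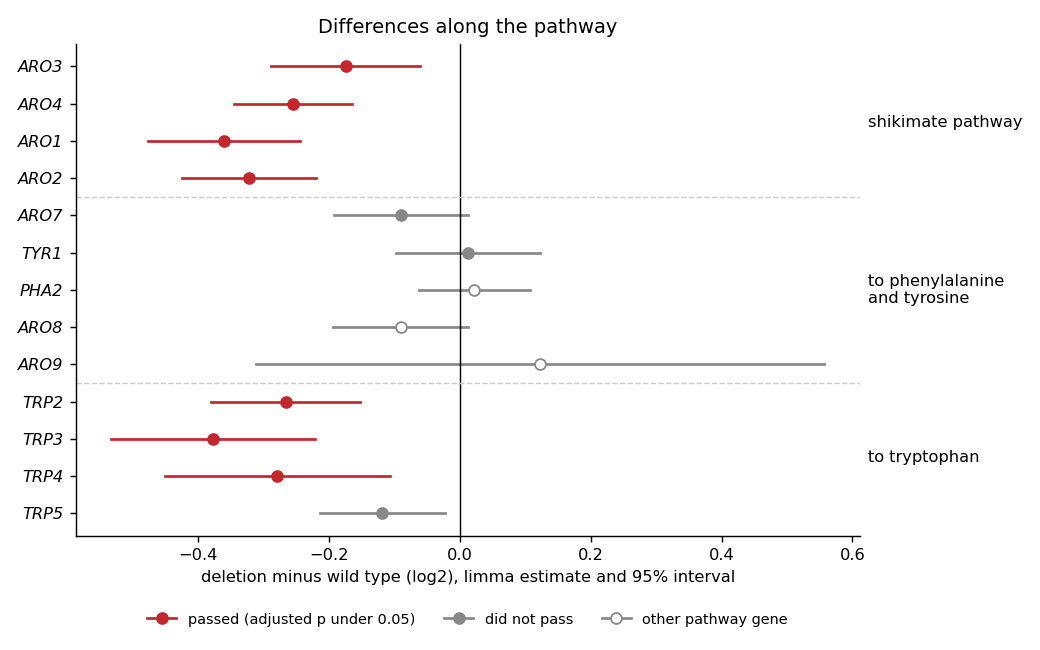
Difference between deletion and wild type (x axis, log2; limma estimate with its 95% interval, n = 3 arrays per group) for the 10 genes (filled points) and for PHA2, ARO8 and ARO9 (open points), in pathway order with dashed lines between the trunk and the branches. The intervals of all 4 trunk genes and of TRP2, TRP3 and TRP4 lie below 0 and these 7 passed the test; the interval of TRP5 also lies below 0 but its adjusted p of 0.0706 did not pass.

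Across the 10 genes, 9 had every deletion array below every wild-type array, a pattern found in 18.1% of all tested probe sets; none had every deletion array above, against 26.7%. Wild-type replicate 1 was the lowest wild-type array for 9 of the 10 genes, ARO2 excepted, with a median deviation of -0.06 from the group mean. No deletion array took that place as often: replicate 2 was the lowest of its group for 5 genes and replicate 3 for 4. Wild-type replicate 1 also carried the highest 25S rRNA signal, 12.81. Without it, 7 genes were lower and the median difference was -0.28. Without deletion replicate 1, the array with remaining PUN1 signal, 6 genes were lower and ARO3 was the gene that lost its call. Without the 3 arrays on which the 25S rRNA control was high, which leaves 2 wild-type arrays and 1 deletion array assumed to vary like them, 3 genes were lower, namely ARO1, TRP2 and TRP3, at a median difference of -0.24 over the 10. ARO3, ARO4, ARO2 and TRP4, which lost their calls there, differed by -0.22, -0.22, -0.25 and -0.26. With the 25S rRNA signal as a covariate, 6 genes were lower.

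Whether neighbouring enzymes of the pathway changed by unequal amounts was asked on each array, by taking the value of 1 gene minus that of another in 4 pairs, so that only the change of that quantity between groups is read. The exact permutation test of 3 against 3 arrays cannot give a two-sided p below 0.1, and adjusted over the 4 pairs none was below 0.2. ARO7 minus TRP2, whose products compete for chorismate, was 0.24, 0.18 and 0.21 on the wild-type arrays and 0.43, 0.40 and 0.33 on the deletion arrays. The groups did not overlap, and the quantity was 0.18 higher in the deletion (exact two-sided p = 0.1, adjusted p = 0.2). TRP2 minus TRP3, subunits of the same enzyme complex, was 0.20, 0.20 and 0.08 in wild type and 0.27, 0.28 and 0.26 in the deletion, a value 0.11 higher without overlap (exact two-sided p = 0.1, adjusted p = 0.2). Without wild-type replicate 3, the array on which these genes read closest, it was 0.07 higher (0.0699).

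For the entry isozymes, ARO3 minus ARO4 was -0.28, -0.23 and -0.15 in wild type and -0.19, -0.14 and -0.09 in the deletion. These groups overlapped, at a mean 0.08 higher in the deletion (exact two-sided p = 0.2, adjusted p = 0.267). Between arrays of the same number, however, the quantity was higher in the deletion in 3 of 3 pairs, by 0.10, 0.09 and 0.05 (0.0988, 0.0924 and 0.0509). An exact two-sided sign-flip test over these 3 pairs gave p = 0.25, the smallest it allows. It gave the same for TRP2 minus TRP3 and for ARO7 minus TRP2, which were also higher in 3 of 3. For TRP2 minus TRP3 and ARO7 minus TRP2 the groups did not overlap, so any pairing of the arrays gives that outcome and it adds nothing. ARO3 minus ARO4 was 0.0491 higher without wild-type replicate 1, and 0.0039 higher without the 3 arrays of high 25S rRNA, which leaves no same-numbered pair. TYR1 minus PHA2, whose products compete for prephenate, was 1.99, 2.05 and 1.97 in wild type and 1.95, 1.97 and 2.06 in the deletion. Its difference of -0.01 (exact two-sided p = 0.7) lay between -0.0622 and 0.0313 over the alternatives.

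**Figure D3:**
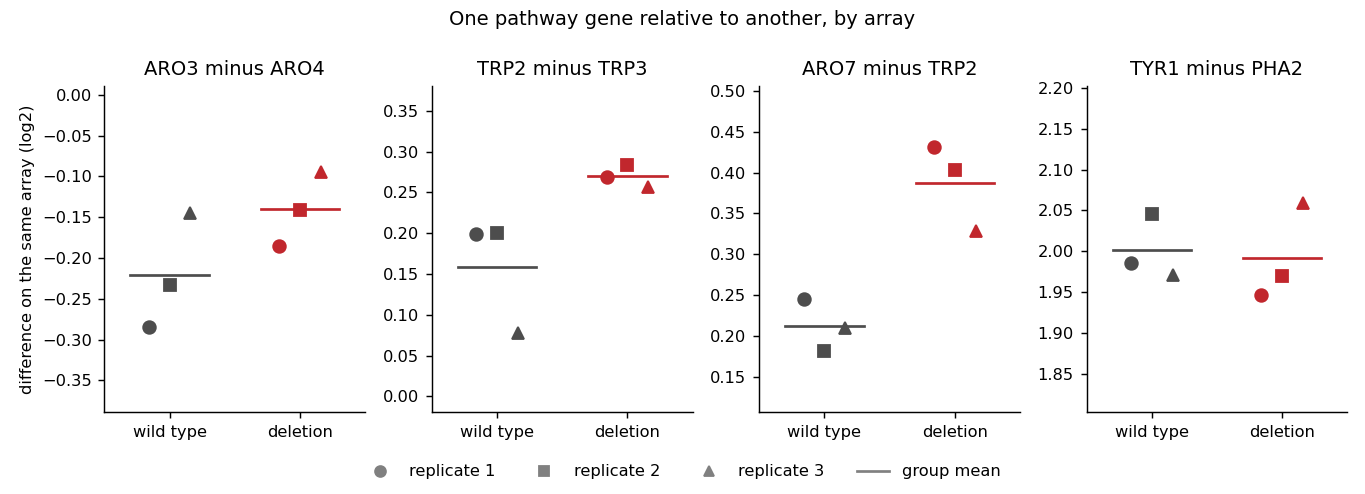
Value of 1 gene minus that of another on the same array (y axis, log2; each panel spans 0.4 log2 units) for 4 pairs, with replicates as points and group means as lines. The groups are apart for ARO7 minus TRP2 and for TRP2 minus TRP3 and overlap for the other pairs.

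The remaining genes of the pathway did not pass the test. PHA2, the gene of prephenate dehydratase on the way to phenylalanine, read 9.84, 9.85 and 9.86 in wild type and 9.86, 9.90 and 9.86 in the deletion, a difference of 0.02 (SE 0.04, adjusted p = 0.692). ARO8, an aromatic aminotransferase of the last step, differed by -0.09 (SE 0.04, adjusted p = 0.171) and its groups overlapped. ARO9, the inducible aromatic aminotransferase that mainly serves breakdown, differed by 0.12 with an SE of 0.18 (adjusted p = 0.664), and its direction turned without wild-type replicate 1, to -0.09.

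Yeast turns tryptophan into the nicotinic moiety of NAD by the kynurenine route. Of 7 measured BNA genes listed for this route by name, limma called 5 higher and 1 lower, with a median of 0.32. The shares over all tested probe sets were 15.8% and 9.82%. BNA1, a dioxygenase of the route, read 11.27, 11.43 and 11.61 in wild type and 12.30, 12.37 and 12.41 in the deletion. The groups lay 0.68 apart, and the difference was 0.92 (SE 0.09, adjusted p = 0.000657). BNA2, the dioxygenase that opens the tryptophan ring, was 0.54 higher (SE 0.06, adjusted p = 0.00132), and BNA5, kynureninase, was 0.53 higher (SE 0.04, adjusted p = 0.000199). BNA4 and BNA3 were 0.32 and 0.20 higher, BNA7 differed by -0.18 and BNA6 by 0.02. In leave-one-out fits BNA3 kept its call only without deletion replicate 1, and BNA7 only without wild-type replicate 1 or deletion replicate 3. Without the 3 high-25S arrays, BNA1, BNA2 and BNA5 were the 3 genes of the route still called higher, and none was called lower.

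Other routes fed by or feeding the pathway were mixed. Their counts stand beside shares of 15.8% called higher and 9.82% called lower over all tested probe sets. The lists were not tested against these shares. Among 8 genes of the Ehrlich route, which degrades aromatic amino acids to fusel alcohols, 3 were called higher and 1 lower (1 higher without wild-type replicate 1, wild-type replicate 3 or deletion replicate 2). PDC6 and PDC5, minor pyruvate decarboxylases, were 0.53 and 0.24 higher, and the alcohol dehydrogenase gene ADH5 differed by -0.95. In leave-one-out fits PDC5 kept its call only without deletion replicate 3. The remaining higher call was ARO80, an activator gene that is also counted among the regulators below. The ARO80 call was lost in 10 of 15 alternatives. Of 13 genes of the pentose phosphate pathway and of enolase, which supply erythrose 4-phosphate and phosphoenolpyruvate, 3 were called higher and 2 lower. The count of higher calls fell to 1 with the replicate block and when any 1 array other than deletion replicate 1 was left out. TKL2, the minor transketolase, was 0.98 higher (SE 0.13, adjusted p = 0.00286), SOL4, a 6-phosphogluconolactonase homolog, differed by -0.51, and ZWF1, glucose-6-phosphate dehydrogenase, by -0.26 (adjusted p = 0.00508, and 0.0648 without the 3 high-25S arrays). TKL1, the major transketolase, differed by -0.03 and did not pass; it was named after its value was seen. None of the 6 genes for ribose phosphate activation and glutamine synthesis passed, the largest difference being -0.10 in PRS1. Nor did any of 3 genes listed for other routes from chorismate, ABZ1, ABZ2 and COQ2, the largest difference being -0.14 in ABZ1. Not all of their products act on chorismate itself.

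Of 7 permease genes that take up aromatic amino acids, 1 was called higher and 3 lower. The shares over all tested probe sets were 15.8% and 9.82%. The general permease gene GAP1 was 0.71 higher. AGP1 differed by -0.72, BAP2 by -0.43 and GNP1 by -0.17 (adjusted p = 0.026). The count of lower calls fell to 2 when replicate 1 or 2 of either group was left out. TAT2 and TAT1, the permeases best known for tryptophan and tyrosine, differed by 0.01 and -0.06 and did not pass (adjusted p = 0.881 and 0.469); they were named after their values were seen. Of the 4 aromatic tRNA synthetase genes, FRS2, a subunit of the phenylalanine enzyme, was lower by a difference of -0.22 (SE 0.04, adjusted p = 0.00757, and 0.147 without the 3 high-25S arrays) and 3 did not pass.

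Of 10 genes listed as regulators, among them activators of nitrogen genes and of aromatic amino acid breakdown, 1 was called higher and 2 lower. The other 7, GCN4 among them, did not pass. Over all tested probe sets, 15.8% were called higher and 9.82% lower. GCN4 mRNA read 14.18, 14.23 and 14.26 in wild type and 14.23, 14.28 and 14.30 in the deletion. The groups overlapped, and the difference was 0.05 (SE 0.04, adjusted p = 0.46); GCN4 was named after its value was seen, and the array measures its mRNA and not its protein. GAT1, a GATA activator of nitrogen genes, differed by -1.33 (SE 0.05, adjusted p = 6.17e-06) and GLN3, another, by -0.32 (adjusted p = 0.0471). ARO80, the activator of aromatic amino acid breakdown, was 0.20 higher (adjusted p = 0.0497). The calls on GLN3 and ARO80 were lost in 6 and 10 of 15 alternatives.

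Beside 3 other amino acid pathways, the aromatic genes had a median nearer 0 than the branched-chain and arginine genes, while their order to the histidine genes depended on single arrays. The branched-chain pathway held 8 lower and 1 higher of 11 genes with a median of -0.68, the arginine pathway 4 lower of 7 measured with a median of -0.52, and the histidine pathway 4 lower of 7 with a median of -0.31. The largest decreases there were -1.94 in LEU1, -2.06 in ARG1 and -0.80 in HIS1, against -0.38 in TRP3. The histidine median was -0.203 against -0.228 for the aromatic genes without wild-type replicate 3, and -0.264 against -0.268 without deletion replicate 1. The difference between the lists was not tested. Over all tested probe sets, 9.82% were called lower and 15.8% higher. The genes next to the 10 on their chromosomes had a median difference of 0.00, with 3 of 17 measured called lower and none higher (1 higher with the replicate block). These were MET6, beside TRP2, which encodes methionine synthase and differed by -1.23 (adjusted p = 0.000621), PTC2, on the other side of TRP2, at -0.17, and YMC1, beside ARO7, at -0.17. The calls on PTC2 and YMC1 were lost in 8 and 6 of 15 alternatives.

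**Figure D4:**
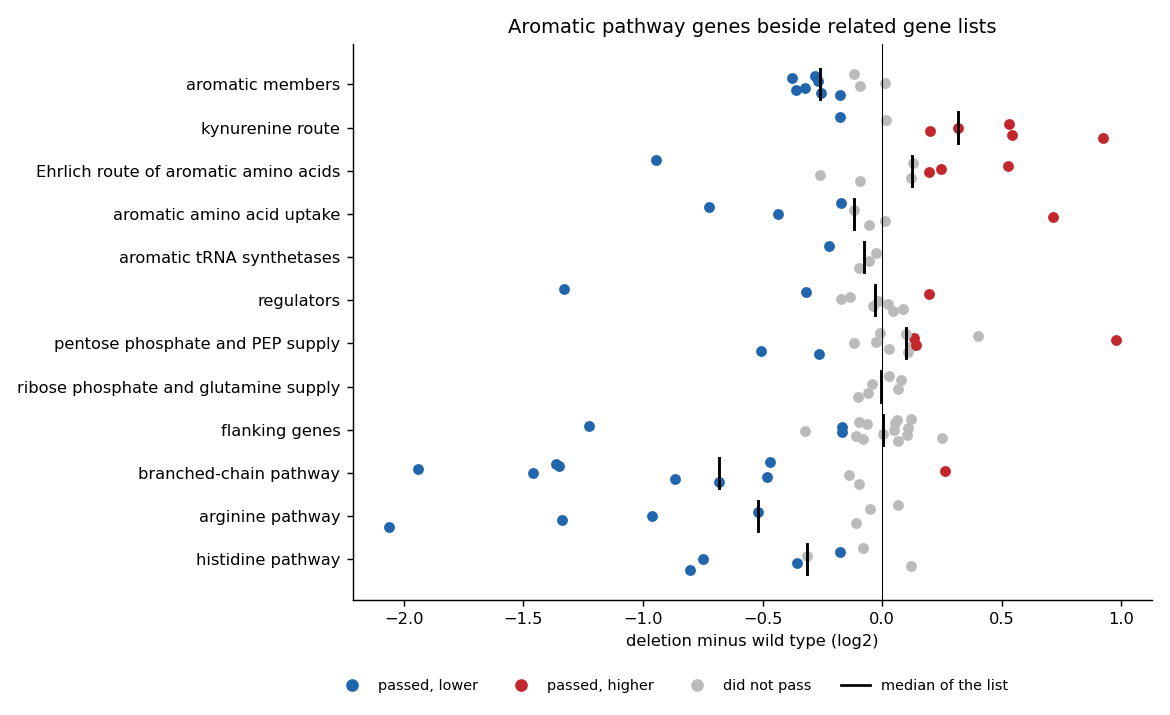
Difference between deletion and wild type (x axis, log2) for every measured gene of the aromatic pathway list and of 11 related lists (rows); blue points passed the test as lower, red as higher, grey did not pass, and black bars are medians. The aromatic genes gather around a median of -0.26, to the right of the medians of the branched-chain and arginine pathways and close to that of the histidine pathway (-0.31), while the kynurenine route has its median at 0.32.

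**Figure D5:**
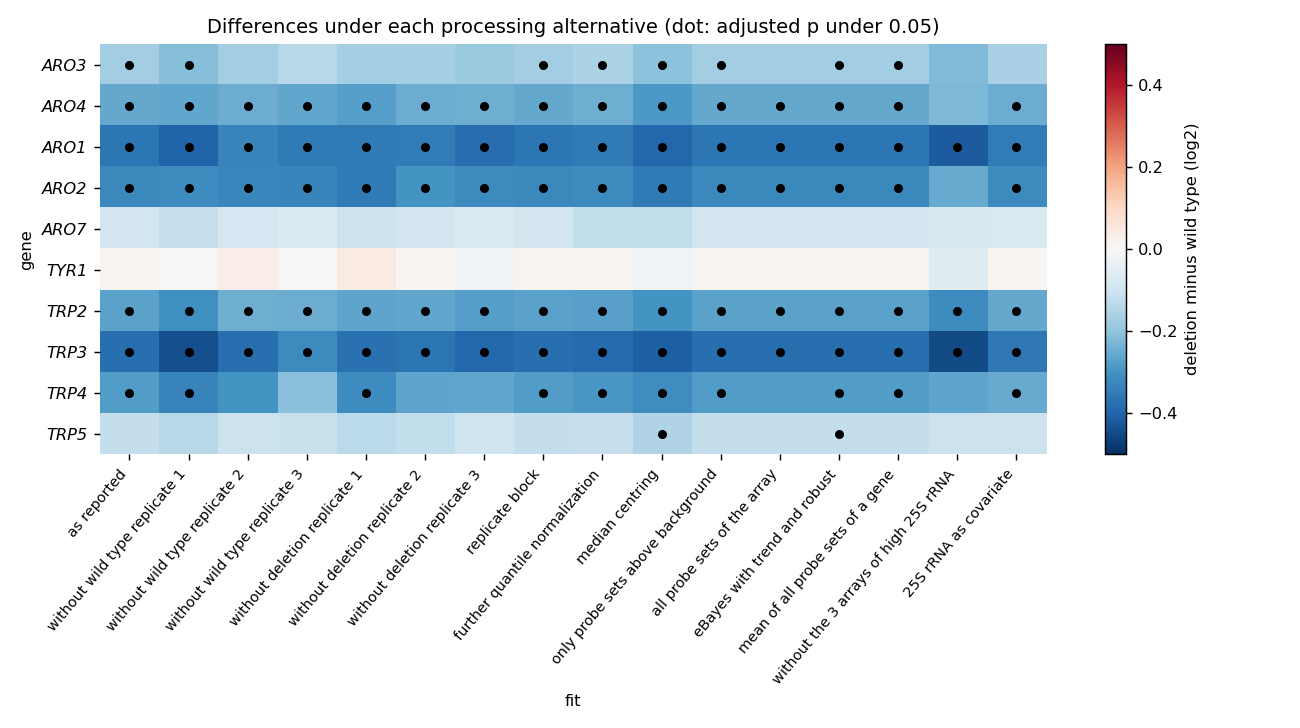
Difference of each of the 10 genes (rows; colour, log2) in the reported fit and under 15 alternatives (columns), with a dot where the adjusted p was under 0.05. ARO1, TRP2 and TRP3 carry a dot in every column, ARO3 loses it in 8 and TRP4 in 6, and ARO7 and TYR1 carry none.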

How the data were processed

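The deposited values are log2 probe set values that the authors made with GCRMA, which corrects for nonspecific binding by probe base composition. GCRMA is named in the submitters' processing notes, which also list GCOS 1.1 and limma without an order. The base of the logarithm was inferred to be 2 from the values' range. Of 10928 probe sets, 7244 carried 1 gene symbol in the platform's annotation, 1 several and 3683 none; the 5498 of S. cerevisiae genes were tested, under the symbols of assembly R64. Background is the 95th percentile of 1747 Schizosaccharomyces pombe probe sets per array. No build is named for the probes, so no positions are given.

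Group differences were fitted with limma 3.58.1 under R 4.3.3 (default lmFit and eBayes, two-sided) and adjusted by Benjamini-Hochberg over the 5498 probe sets, with 0.05 as the threshold; this fit gave all adjusted p-values of genes. Gene pairs were compared by exact permutation (scipy 1.17.1). The members and lists were chosen with earlier results of these data known, so lists are described by counts and medians. Named were the 10 genes, PHA2, ARO8, ARO9, PUN1 and markers, up to 3 passing genes per list by size of difference (the largest where none passed, 1 per compared pathway) and all passing neighbours; a-cell markers are given as a range. BNA3, BNA4, BNA6, BNA7, ARO10, GNP1, ABZ2 and COQ2 were named after their values were seen.

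Same-numbered wild-type and deletion arrays deviated together from their group means (correlations of 0.351, 0.213 and 0.112 across probe sets). All exceed 0.1, so the numbers were taken to pair the arrays in the replicate block and the sign-flip test, although no label states a shared day. The reported fit and the exact permutation test of 3 against 3 arrays did not use this pairing. The pairing is weak for number 3: its arrays correlated better with those of number 2 in the opposite group (0.183 for the deletion array and 0.161 for the wild-type array) than with each other, while the remaining unmatched pairs lay at -0.283 to -0.190. Alternatives left out arrays, added the replicate block or the 25S rRNA signal, or changed the scaling, the filter, the variance model or the probe set. A planned motif search was not run.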

Additional observations from a re-analysis of the deposited data

How the results depend on the processing

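Over 15 alternatives, 3 to 8 of the 10 genes were called lower and 0 higher. With the replicate block 7 were lower, and the block changed no call of a gene named here. Leaving out 1 array at a time gave 5 to 7. Without the 3 high-25S arrays it was 3; ARO3, ARO4, ARO2 and TRP4 then differed by -0.22, -0.22, -0.25 and -0.26 (-0.17, -0.26, -0.32 and -0.28 in the reported fit), at adjusted p = 0.118, 0.101, 0.0725 and 0.127 with fewer samples in the fit. Over all tested probe sets, 540 were lower and 868 higher; the counts were 284 to 560 and 507 to 874 when 1 array was left out, 314 and 558 when every probe set on the array was fitted, and 373 and 447 without the 3 high-25S arrays. TYR1 minus PHA2 ranged from -0.0431 to 0.0132 when 1 array was left out and was 0.0313 after quantile normalization and -0.0622 without the 3 arrays; the other pairs kept their direction. Signs of single genes turned only for differences that were not called, among the genes named here. The TYR1 difference ranged from -0.0157 to 0.0419 when 1 array was left out, and was -0.0189 after centring and -0.059 without the 3 arrays. The PHA2 difference was -0.0215 after quantile normalization and -0.0095 after centring. The ARO9 difference ranged from -0.0913 to 0.256 and was -0.2691 without the 3 arrays. The BNA6 difference ranged from -0.0071 to 0.0638, and was -0.0135 after centring and -0.0932 without the 3 arrays. The GCN4 difference was -0.0144 without the 3 arrays. Of 540 recomputed counts of the other lists, 481 stayed within 1.5 times. These include counts that were 0 in both fits, such as those of marker lists in the opposite direction. The count of higher calls left that bound in 11 of 15 alternatives for the pentose phosphate and enolase list. It did so in 10 for the regulators and in 7 for the Ehrlich route. The causes were not tested.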

Other observations

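ARO9 and ARO10, both known targets of the activator Aro80, had a wider spread within groups than any of the 10 synthesis genes. ARO9 read 10.42, 11.11 and 11.00 in wild-type replicates 1, 2 and 3 and 10.79, 11.03 and 11.07 in the deletion replicates, and ARO10, a decarboxylase gene of the Ehrlich route, read 9.70, 10.42 and 10.49 and 9.68, 9.98 and 10.18. Replicate 1 was the lowest array of both groups for both genes. The 25S rRNA signal of wild-type replicate 1 was high and that of deletion replicate 1 was low. ARO10 did not pass at -0.26 (limma adjusted p = 0.438) and passed without wild-type replicate 1, at -0.51 (adjusted p = 0.04).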
